A study of Homo sapiens with 12 samples.

Results

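Endothelial cells line blood vessels, and 9 mouse genes that mark them were followed here through xenograft tumours in which the cancer cells are human and the vessels belong to the mouse. The genes are Flt1 (ENSMUSG00000029648), Kdr (ENSMUSG00000062960), Tek (ENSMUSG00000006386), Tie1 (ENSMUSG00000033191), Cdh5 (ENSMUSG00000031871), Pecam1 (ENSMUSG00000020717), Emcn (ENSMUSG00000054690), Eng (ENSMUSG00000026814) and Vwf (ENSMUSG00000001930). Their mouse genome coordinates were not used here. They were chosen by name, with earlier results of these data known. All 9 were found among the 54146 mouse gene identifiers, and 112389 human and mouse identifiers were listed in all. All 9 also passed the filter on low counts that left 13055 mouse genes for testing.

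The tumours were grown from MCFDCIS, a human breast cell line whose lesions in mice resemble ductal carcinoma in situ. In every group the cells were injected under the skin of athymic nude mice, which have no thymus and few T cells, and tumours had 2 weeks to establish. RNA from whole homogenised tumours was sequenced in 4 groups of 3 tumours. The palbociclib initial group had 2 weeks of palbociclib, an inhibitor of the kinases CDK4 and CDK6, daily by oral gavage at 50 mg per kg, and the vehicle initial group had 2 weeks of vehicle. The palbociclib recovery and vehicle recovery groups had the same treatments followed by recovery. All tumours came from 1 cell line, and the length of the recovery, the vehicle and the age and sex of the mice are not given in the labels. Whether each tumour grew in its own mouse is not stated either, so p-values here reflect only how far these tumours differ, which may be technical.

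New vessels grow toward cells that release vascular endothelial growth factor (VEGF). On the endothelial surface KDR (VEGF receptor 2) carries most of the growth signal, while FLT1 (VEGF receptor 1) binds the same ligand tightly and, also as a soluble form, limits how much of it reaches KDR. TEK (the receptor TIE2) and its partner TIE1 respond to angiopoietins and govern how stable a vessel is, and cells short of oxygen make more VEGFA through the hypoxia-inducible factors.

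Counts assigned to genes ranged from 8004903 to 15716211 per tumour, and 1391023 to 3483342 of them were mouse counts. The 9 endothelial genes had between 55 counts (Vwf, palbociclib initial tumour 2) and 1148 counts (Pecam1) in a tumour. Some libraries stood apart. Vehicle initial tumours 2 and 3 had high mitochondrial shares of human counts, 5.32% and 11.2%, against 0.674% to 2.64% in the rest. The same 2 tumours had the highest shares of counts in rows that name no gene, 61.9% and 69.1%. Vehicle recovery tumour 2 had the lowest such share, 37.0%, and the others had 48.7% to 57.3%. In a principal component analysis of human genes, vehicle recovery tumour 2 had a first-component score of 113.4 and the rest had scores from -37.6 to 14.2. For mouse genes its score of -14.1 was inside the range of the rest, from -47.4 to 48.1.

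The label of these genes as host genes was checked against the human copies in the same tumours. Over all 12 tumours, CDH5 had 13 human counts against 7133 mouse counts, FLT1 had 18 against 5201, TIE1 had 13 against 2955 and TEK had 20 against 1829. The human copy thus made up 0.182% to 1.08% of the counts of these 4 genes. For VWF and EMCN it made up 4.10% and 4.51%. Human counts were far from absent for the other 3 members. PECAM1 had 7957 human counts against 9411 mouse counts, KDR had 3770 against 5579 and ENG had 1651 against 5500, which is 45.8%, 40.3% and 23.1% of the counts of both copies. How reads that align to both genomes were assigned is not stated in the labels or files, and its part in these 3 genes was not tested. None of the human copies of these 3 genes passed the test between palbociclib and vehicle. Human PECAM1 had log2 fold changes of 0.70 ± 0.22 at the initial stage and 0.30 ± 0.22 after recovery (SE, edgeR adjusted p = 0.20 and 0.64). Human KDR had -0.29 ± 0.40 and 0.31 ± 0.39 (edgeR adjusted p = 0.91 and 0.78), and human ENG had 0.52 ± 0.23 and -0.56 ± 0.22 (edgeR adjusted p = 0.46 and 0.57). Against the mouse copies below, the sign was opposite for PECAM1 at both stages, ENG at the initial stage and KDR after recovery, and it was the same for KDR at the initial stage and ENG after recovery.

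Levels are given as mouse CPM, a gene's count divided by all mouse counts of the tumour and multiplied by 1000000, so they measure a gene within the host RNA of a tumour. In bulk tumours fewer endothelial cells and less RNA per endothelial cell cannot be told apart. Summed over the 9 genes, the level was 1426, 1245 and 1096 CPM in the 3 palbociclib initial tumours and 1845, 1794 and 1539 CPM in the vehicle initial tumours. After recovery it was 1654, 1671 and 1300 CPM with palbociclib and 1785, 1744 and 2072 CPM with vehicle. All palbociclib tumours thus lay below all vehicle tumours of their stage. The ratio of the means was 0.728 at the initial stage and 0.826 after recovery, and it was 0.685 and 0.786 when Pecam1, Kdr and Eng were left out of the sum. With each tumour left out in turn the log2 ratio of the sum stayed between -0.56 and -0.37 at the initial stage and between -0.34 and -0.17 after recovery, where the values over all tumours were -0.46 and -0.28.

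**Figure D1:**
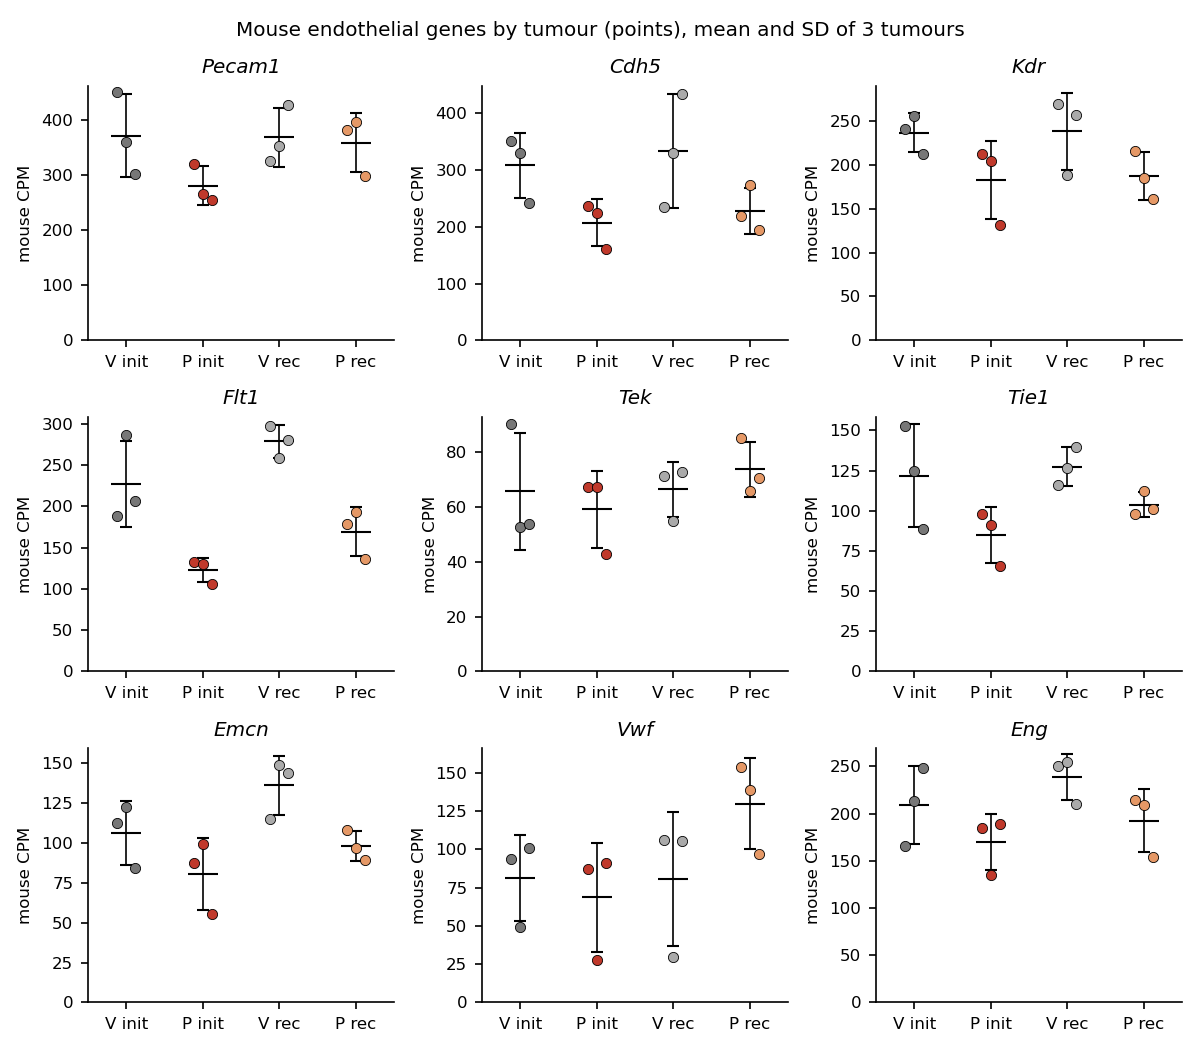
Level of each of the 9 mouse endothelial genes in mouse CPM (vertical axes, from 0) in 12 tumours. V is vehicle, P is palbociclib, init is the initial and rec the recovery stage, points are tumours, and bars are the mean and SD of 3. The groups of Flt1 are apart at both stages, and Vwf has 1 low tumour in 3 of the groups.

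At the initial stage all 9 genes had negative log2 fold changes for palbociclib against vehicle, from -0.89 (Flt1) to -0.18 (Tek), with a median of -0.41. The median over all mouse genes tested was -0.0082, and 51.2% of them were negative. None of the 9 passed edgeR's quasi-likelihood test at an adjusted p of 0.05 over all mouse genes, where 0% of the 13055 genes passed. Unadjusted edgeR p-values lay under 0.05 for 4 of the 9 (Flt1, Tie1, Cdh5 and Pecam1), all lower, against 4.83% of all genes lower at that level. For Flt1, Cdh5 and Kdr the palbociclib tumours lay below all vehicle tumours, which 5.94% of all mouse genes did. DESeq2, which called 0.337% of mouse genes, called Flt1 and no other member. After recovery 7 genes had negative and 2 had positive log2 fold changes, with a median of -0.36 against -0.0054 for all genes, of which 50.9% were negative. Again edgeR called none of the 9 and 0% of mouse genes. The unadjusted edgeR p lay under 0.05 for Flt1, Emcn and Cdh5, against 3.75% of all genes lower at that level. The groups of Flt1, Tie1 and Emcn did not overlap, with palbociclib lower, as for 5.38% of all genes. DESeq2 called Flt1 again, with 0.306% of mouse genes. Flt1 was the member whose groups lay apart at both stages, which 0.643% of mouse genes did in this direction. Such counts over the 9 are not counts of independent genes, because several members varied together, as given below.

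**Figure D2:**
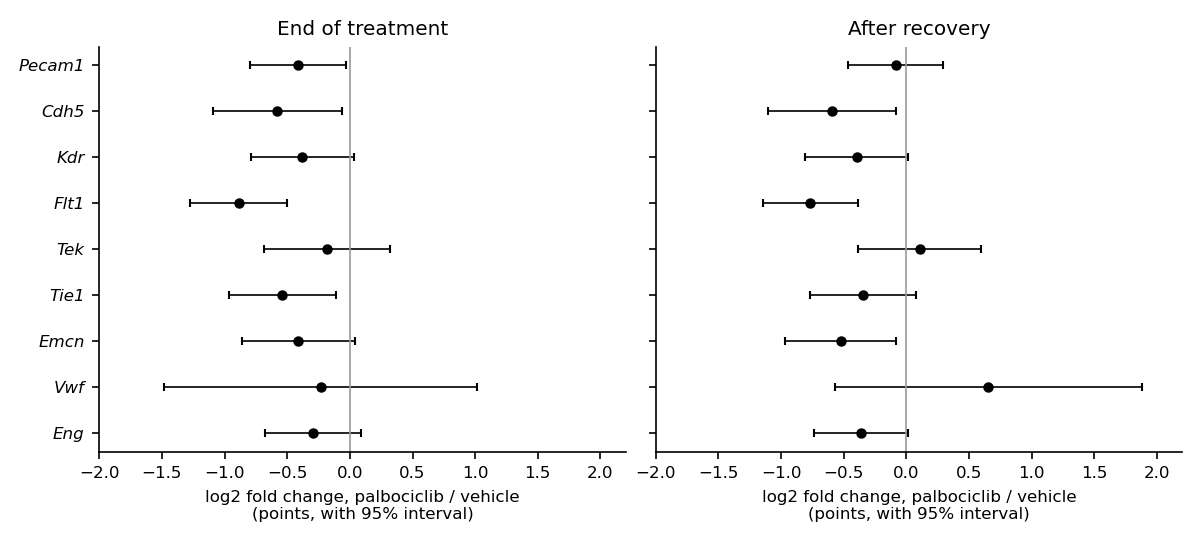
Log2 fold change of each mouse endothelial gene, palbociclib over vehicle (horizontal axes), at the initial stage (left) and after recovery (right), with 95% intervals from edgeR. All 9 points lie below 0 at the initial stage, and Tek and Vwf lie above 0 after recovery.

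Flt1, the decoy-like VEGF receptor, stood at 132, 131 and 106 CPM in the palbociclib initial tumours and at 188, 287 and 207 CPM in the vehicle initial tumours. After recovery it stood at 179, 193 and 136 CPM with palbociclib and at 298, 258 and 281 CPM with vehicle. The highest palbociclib tumour was below the lowest vehicle tumour at each stage. Its log2 fold change was -0.89 ± 0.18 at the initial stage (95% interval -1.27 to -0.50, edgeR adjusted p = 0.34). After recovery it was -0.77 ± 0.18 (95% interval -1.15 to -0.39, edgeR adjusted p = 0.34). DESeq2 gave adjusted p = 0.0054 and 0.023 for these contrasts. With no filter on low counts edgeR called Flt1 at both stages. That setting raised calls over all mouse genes as well, from 0% with the filter at each stage to 0.964% and 0.532%. Without vehicle initial tumour 1 edgeR called Flt1 at the initial stage, at -0.99 with adjusted p = 0.030 and 0.46% of mouse genes called, while without vehicle initial tumours 2 and 3, the tumours of high mitochondrial share, it stood at -0.64 with adjusted p = 0.80. Without vehicle recovery tumour 2 the recovery value was -0.81 (edgeR adjusted p = 0.67).

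Kdr, the main signalling receptor for VEGF, had 212, 204 and 131 CPM in palbociclib initial tumours and 241, 256 and 212 CPM in vehicle initial tumours. The highest treated tumour lay just under the lowest vehicle tumour, at 211.6 against 212.1 CPM. After recovery Kdr had 216, 185 and 161 CPM with palbociclib and 269.5, 188 and 257 CPM with vehicle, and the groups overlapped. The log2 fold changes were -0.38 ± 0.19 and -0.39 ± 0.19 (edgeR adjusted p = 0.68 and 0.71), so Kdr did not pass at either stage.

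The counts of Flt1 were also set against those of Kdr within each tumour, a ratio that does not depend on the total of mouse counts and that was chosen after the values were seen. The ratio was 0.625, 0.640 and 0.805 in palbociclib initial tumours and 0.780, 1.12 and 0.976 in vehicle initial tumours. After recovery it was 0.829, 1.04 and 0.847 with palbociclib and 1.10, 1.38 and 1.09 with vehicle. The groups overlapped at the initial stage through vehicle tumour 1 and did not overlap after recovery. As a percentage of the other 8 genes' counts, Flt1 stood at 10.2%, 11.7% and 10.7% in palbociclib initial and 11.4%, 19.0% and 15.5% in vehicle initial tumours. After recovery these were 12.1%, 13.1% and 11.7% with palbociclib and 20.01%, 17.4% and 15.7% with vehicle, again overlapping at the initial stage only. Pecam1 and Vwf, each as a percentage of the other 8, were higher with palbociclib after recovery, without overlap. Pecam1 stood at 29.7% to 31.1% against 22.2% to 25.95% with vehicle, and Vwf at 8.0% to 10.3% against 1.7% to 6.3%. Both are part of the counts that Flt1 was set against. Kdr, Pecam1 and Eng are the genes whose human copies made up 23.1% to 45.8% of the counts of both copies. Kdr is the denominator of the ratio, and all of them are among the other 8. Neither measure was computed without them. How many of all mouse genes lie apart on such ratios was not counted.

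**Figure D3:**
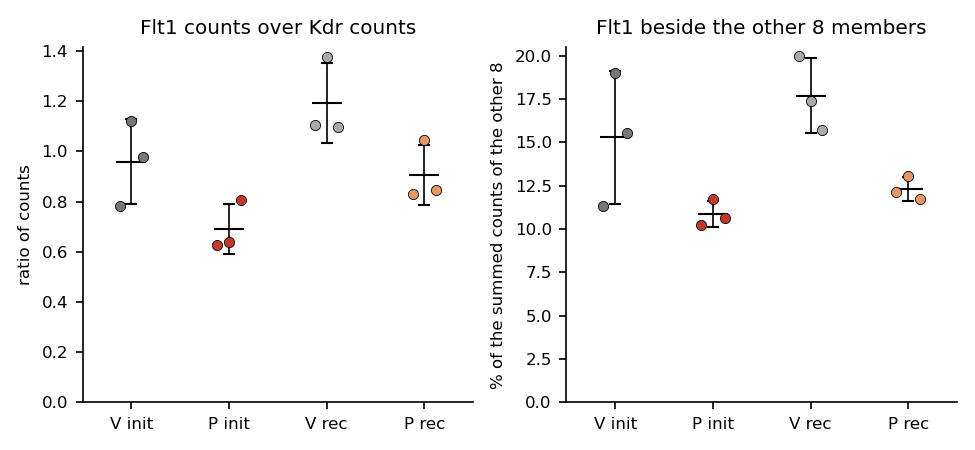
Flt1 counts divided by Kdr counts (left, a ratio) and as a percentage of the summed counts of the other 8 endothelial genes (right), per tumour (points) with mean and SD of 3. V is vehicle and P is palbociclib. In both panels the palbociclib recovery tumours lie below all vehicle recovery tumours, and at the initial stage vehicle tumour 1 lies within or beside the palbociclib values.

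Tek, the angiopoietin receptor, stood at 67.3, 67.4 and 42.8 CPM in palbociclib initial and 90.5, 52.7 and 53.9 CPM in vehicle initial tumours. After recovery it stood at 85.1, 65.9 and 70.4 CPM with palbociclib and 71.2, 55.0 and 72.9 CPM with vehicle. The groups overlapped at each stage, and the log2 fold changes of -0.18 ± 0.24 and 0.10 ± 0.23 were smaller than their standard errors (edgeR adjusted p = 0.93 and 0.98). Tie1, the receptor that pairs with TEK, had 98.2, 91.0 and 65.5 CPM in palbociclib initial tumours and 152, 124 and 88.4 CPM in vehicle initial tumours, with overlap. After recovery Tie1 had 98.1, 112 and 100.8 CPM with palbociclib and 116, 127 and 139.9 CPM with vehicle, with no overlap. Its log2 fold changes were -0.54 ± 0.20 (edgeR adjusted p = 0.54) and -0.35 ± 0.20 (edgeR adjusted p = 0.77).

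Among the surface proteins of endothelial junctions and coat, Cdh5 encodes VE-cadherin, the adhesion protein that seals endothelial cells to each other. It had 237, 224 and 161 CPM in palbociclib initial tumours and 351, 331 and 243 CPM in vehicle initial tumours, with no overlap. After recovery it had 219, 273 and 194 CPM with palbociclib and 235, 331 and 435 CPM with vehicle, where palbociclib tumour 2 lay above vehicle tumour 1. The log2 fold change was -0.58 ± 0.24 at the initial stage and -0.59 ± 0.24 after recovery (edgeR adjusted p = 0.59 and 0.64).

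Pecam1, which encodes the junction protein CD31 used to stain vessels, had 320.0, 266 and 254 CPM in palbociclib initial tumours and 451, 359 and 302 CPM in vehicle initial tumours. After recovery the values were 381, 396 and 298 CPM with palbociclib and 324, 352 and 427 CPM with vehicle. The groups overlapped at each stage, at log2 fold changes of -0.41 ± 0.18 (edgeR adjusted p = 0.61) and -0.086 ± 0.18 (edgeR adjusted p = 0.98). Emcn encodes endomucin, a sialomucin of capillary and venous endothelium. Its levels were 87.6, 99.0 and 55.4 CPM in palbociclib initial and 112, 122 and 84.1 CPM in vehicle initial tumours, with overlap. After recovery they were 108, 96.9 and 89.5 CPM with palbociclib and 115, 149 and 144 CPM with vehicle, with every palbociclib tumour lower. The log2 fold changes of Emcn were -0.41 ± 0.21 (edgeR adjusted p = 0.68) and -0.52 ± 0.21 (edgeR adjusted p = 0.62).

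Eng encodes endoglin, a co-receptor for BMP9 and other ligands of the transforming growth factor beta family. It had 185, 135 and 189 CPM in palbociclib initial and 166, 213 and 248 CPM in vehicle initial tumours. After recovery it had 214, 209 and 154 CPM with palbociclib and 250.4, 255 and 210.5 CPM with vehicle. The groups overlapped at both stages, and the log2 fold changes were -0.29 ± 0.18 and -0.36 ± 0.18 (edgeR adjusted p = 0.75 and 0.71).

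Vwf, the clotting factor that endothelial cells store and megakaryocytes also make, varied most between tumours of a group. It had 87.1, 27.6 and 91.3 CPM in palbociclib initial and 93.6, 49.2 and 100.6 CPM in vehicle initial tumours. After recovery it had 154, 139 and 96.6 CPM with palbociclib and 106, 30.0 and 106 CPM with vehicle. The lowest values were those of palbociclib initial tumour 2, vehicle initial tumour 2 and vehicle recovery tumour 2. The log2 fold change was -0.23 ± 0.55 at the initial stage and 0.65 ± 0.54 after recovery (edgeR adjusted p = 0.96 and 0.87). Without vehicle recovery tumour 2 the recovery value was 0.26.

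Several of the initial values leaned on 1 tumour. With palbociclib initial tumour 3 left out Kdr stood at -0.18 and Emcn at -0.18. Without vehicle initial tumour 1 Pecam1 stood at -0.22 and Tie1 at -0.32, and Eng stood at -0.15 without palbociclib initial tumour 2. After recovery Cdh5 stood at -0.36 without vehicle recovery tumour 3, and Eng at -0.22 without palbociclib recovery tumour 3. None of these 6 genes passed edgeR's test in any fit of the drug effect at 1 stage that left out 1 tumour.

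To see whether the drug effect differed between stages, the recovery effect minus the initial effect was tested for each gene. The differences ran from -0.11 (Emcn) to 0.89 (Vwf), and that of Flt1 was 0.12 ± 0.25 (95% interval -0.42 to 0.66). None of the 9 passed (edgeR adjusted p of 0.94 or more, with 0% of mouse genes passing). None of the 9 had an unadjusted p under 0.05, against 5.33% of mouse genes, and DESeq2 called none of them and 0.0383% of mouse genes. These differences are therefore not resolved, with an interval for Flt1 that spans values from a stronger to a weaker effect after recovery.

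The 2 stages were also averaged, a contrast added after the data had been seen. Flt1 then had a log2 fold change of -0.83 ± 0.13 (edgeR adjusted p = 0.052), just short of the threshold, where 1 mouse gene (0.00766%) passed. Cdh5 followed at -0.59 ± 0.17, Emcn at -0.47 ± 0.15, Tie1 at -0.44 ± 0.14, Kdr at -0.39 ± 0.14 and Eng at -0.33 ± 0.13. Together with Flt1 these 6 had an unadjusted edgeR p under 0.05, all lower, against 5.64% of all mouse genes lower at that level. Pecam1 stood at -0.25, Tek at -0.038 and Vwf at 0.21. DESeq2, with 0.843% of mouse genes called, called Flt1 alone among the 9. Flt1 also passed without TMM scaling (0.0306% of mouse genes called), with a filter of CPM of at least 1 in 3 tumours (0.0432%), without vehicle initial tumour 1 (0.743%) and without vehicle initial tumour 3 (0.141%). With no filter Flt1, Cdh5, Emcn and Tie1 passed, with 1.41% of mouse genes.

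The recovery stage was compared with the initial stage within each treatment. In palbociclib tumours this contrast joins time with the recovery that followed the drug, and these cannot be told apart. In vehicle tumours the recovery stage differed from the initial stage by log2 fold changes from -0.0077 (Vwf) to 0.37 (Emcn), with Flt1 at 0.32 ± 0.18. None of the 9 passed (edgeR, with 0% of mouse genes), none had an unadjusted p under 0.05 against 9.71% of mouse genes, and DESeq2 called none of the 9 and 0.146% of mouse genes. No member's groups lay apart, against 5.5% of mouse genes apart and lower and 5.79% apart and higher. In palbociclib tumours all 9 values were positive, from 0.011 (Kdr) to 0.88 (Vwf), with a median of 0.27 against -0.0027 for all mouse genes. None of the 9 passed here either (edgeR called 0.023% of mouse genes, and DESeq2 called none of the 9 and 0.161% of mouse genes). Flt1 had 0.44 ± 0.18 (edgeR adjusted p = 0.81) and was the 1 member with an unadjusted p under 0.05, against 3.09% of mouse genes higher at that level. For Flt1 and Vwf all palbociclib recovery tumours lay above all palbociclib initial tumours, as for 8.88% of all genes. This contrast shares its tumours with the drug contrasts above.

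CPM over mouse counts depends on the other host RNA of a tumour, and the mouse share of counts depends on host and tumour-cell RNA alike. More host RNA and less tumour-cell RNA cannot be told apart in this share. Mouse genes took 17.0%, 17.6% and 25.4% of assigned counts in palbociclib initial and 16.5%, 15.5% and 17.4% in vehicle initial tumours. After recovery they took 19.0%, 21.6% and 21.4% with palbociclib and 14.2%, 16.7% and 18.1% with vehicle. The difference was 3.53 percentage points at the initial stage (exact two-sided permutation p = 0.2, n = 3 per group) and 4.34 percentage points after recovery (exact permutation p = 0.1, the smallest this design can give). Without palbociclib initial tumour 3, whose share was 25.4%, the initial difference was 0.828 percentage points. With each tumour left out in turn it ran from 0.828 to 5.04 percentage points at the initial stage and from 3.30 to 5.20 percentage points after recovery.

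With all assigned counts as the denominator, human and mouse together and again multiplied by 1000000 (total CPM), the summed endothelial level was 242, 219 and 278 in palbociclib initial and 305, 277 and 267 in vehicle initial tumours. After recovery it was 315, 361 and 278 with palbociclib and 254, 291 and 374 with vehicle. On this scale the groups overlapped at both stages, with a ratio of means of 0.870 and 1.04. Cdh5, Kdr and Flt1 still had all palbociclib initial tumours below all vehicle initial tumours, as 1.48% of mouse genes did. After recovery Flt1 alone was lower without overlap, at 29.2 to 41.7 against 42.4 to 50.7 total CPM, as for 0.689% of mouse genes. Tek and Vwf were higher without overlap, as for 34.1% of mouse genes. Fitted with all assigned counts as library size, the median log2 fold change over the 13378 mouse genes this fit tested was 0.28 at the initial stage and 0.39 after recovery. Flt1 was then at -0.62 and -0.38 (edgeR adjusted p = 0.46 and 0.31). On this scale Tek, Vwf and Eng at the initial stage, and Pecam1, Tie1 and Eng after recovery, turned from negative to positive log2 fold changes. Of the other host cell types, fibroblasts, macrophages, pericytes and others, the part in the host share was not tested.

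**Figure D4:**
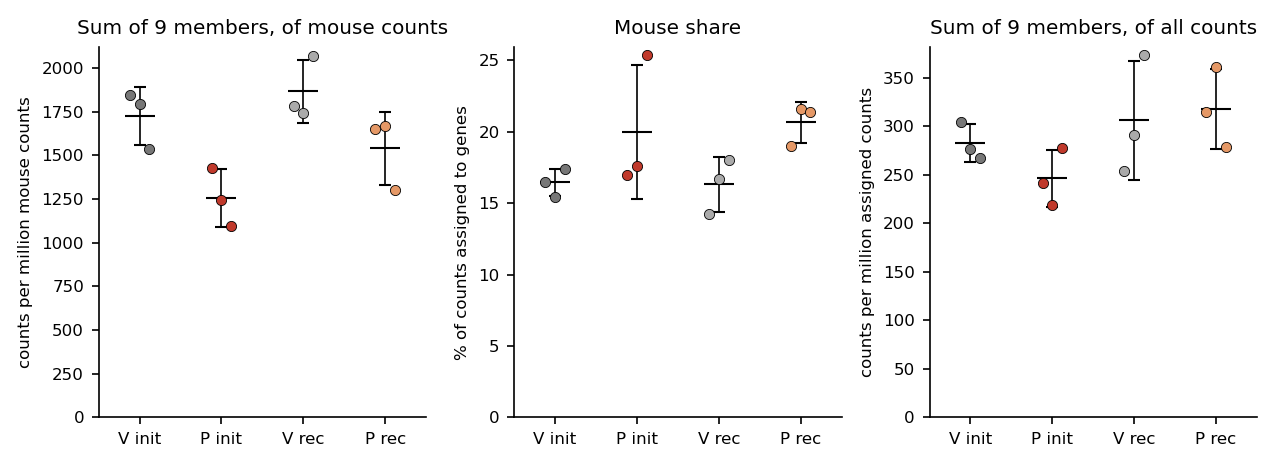
Summed level of the 9 endothelial genes in mouse CPM (left), mouse share of all assigned counts in percent (middle) and the same sum in total CPM, over the assigned counts of both species (right), per tumour (points) with mean and SD of 3. V is vehicle and P is palbociclib. The palbociclib tumours lie below the vehicle tumours of their stage on the left, and the groups overlap on the right.

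Over the 12 tumours the members varied together to unequal degrees. The Pearson correlation of a gene's log2 CPM with the mean of the other 8 was 0.87 for Tie1 and for Pecam1, 0.81 for Flt1 and for Cdh5, 0.80 for Emcn and 0.78 for Kdr. It was 0.47 for Tek, 0.35 for Eng and 0.028 for Vwf. These values describe 12 tumours that share groups and the mouse total as denominator. With the group means taken out Pecam1 stood at 0.82, Kdr at 0.76 and Flt1 at 0.51, while Eng stood at -0.25 and Vwf at -0.046. Of 36 pairs of members 30 had positive correlations, with a median of 0.557, and 3 of the 8 pairs with Vwf did. Among other mouse genes the most alike to the 9 were ENSMUSG00000001435 (r = 0.94, n = 12) and ENSMUSG00000074892 (r = 0.93, n = 12), whose symbols are not paired with identifiers in the tables used here.

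The ligands of these receptors can come from the human tumour cells, whose genes were tested among 18628 human genes with human counts as library size. Of 23 human ligand genes that act on vessels 18 were tested. At the initial stage 3 of them fell with palbociclib (edgeR, where 1.7% of human genes passed as lower) and 15 did not pass. The median over the 18 was -0.30, against 0.0014 for all human genes. VEGFA (chromosome 6, 43770184 to 43786487, GRCh38), the ligand of Kdr and Flt1, had 111, 134 and 134 human CPM (over human counts) in palbociclib initial tumours and 367, 531 and 328 in vehicle initial tumours. After recovery it had 371, 408 and 221 with palbociclib and 463, 508 and 664 with vehicle. Palbociclib tumours were below vehicle tumours at each stage, by a log2 fold change of -1.75 ± 0.22 at the initial stage (edgeR adjusted p = 0.00079) and by -0.80 ± 0.22 after recovery, which did not pass (edgeR adjusted p = 0.57).

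PGF, which binds Flt1 but not Kdr, had 3.29, 2.15 and 3.22 CPM in palbociclib initial and 5.37, 12.1 and 6.80 CPM in vehicle initial tumours, without overlap. Its log2 fold change of -1.53 ± 0.60 did not pass (edgeR adjusted p = 0.40). Among the tested ligands VEGFA, ADM, ANGPTL4 and APLN were also lower without overlap, and APLN did not pass. FGF2 and THBS1 were higher with palbociclib without overlap and did not pass. FGF2 had 128 to 154 against 87.9 to 105 CPM with vehicle, and THBS1 had 2318 to 2732 against 1974 to 2065 CPM. How many of all human genes had groups apart in either direction was not counted. VEGFB, which also binds Flt1 only, stood at -0.30 and VEGFC, a ligand of the lymphatic receptor FLT4 and of Kdr, at -1.18 ± 0.58 (edgeR adjusted p = 0.54 and 0.56). The angiopoietins that act on Tek stood at 0.13 (ANGPT1) and 0.23 (ANGPT2) and did not pass. Of the endoglin ligands, TGFB1 stood at -0.30 and TGFB3 at 0.35, and after recovery at -1.05 and 0.40. Neither passed at either stage, and GDF2 and BMP10 had too few counts to be tested.

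ADM, which encodes the vessel-dilating peptide adrenomedullin, fell by 3.30 ± 0.32 on the log2 scale at the initial stage (edgeR adjusted p = 0.00021). It had 6.21, 3.87 and 9.08 CPM in palbociclib initial tumours, 44.0, 82.0 and 56.1 CPM in vehicle initial tumours, 65.8, 80.6 and 43.2 CPM in palbociclib recovery tumours and 106, 91.9 and 106 CPM in vehicle recovery tumours. ANGPTL4, a secreted inhibitor of lipoprotein lipase, fell by 2.72 ± 0.57 (edgeR adjusted p = 0.037). It did not pass when any 1 palbociclib initial tumour, vehicle initial tumour 2 or vehicle recovery tumour 2 was left out, with log2 fold changes of -3.07 to -1.94, nor without vehicle initial tumours 2 and 3, at -1.63. After recovery none of the 18 ligand genes passed in edgeR's test, where 0.00537% of human genes did. Palbociclib recovery tumours, taken after treatment and recovery, had 4 ligand genes higher than palbociclib initial tumours (edgeR, with 2.36% of human genes higher). On the log2 scale ADM was higher by 3.33, ANGPTL4 by 2.50, VEGFA by 1.43 and VEGFB by 0.57. The rise of ANGPTL4 did not pass when any 1 palbociclib initial tumour, palbociclib recovery tumour 1 or 2, or vehicle recovery tumour 2 was left out. In vehicle tumours over the same time VEGFA stood at 0.47, and edgeR called none of the 18 and 0% of human genes. In the test of the difference between stages ADM was the 1 gene of the 18 that passed, with 0.22% of human genes, and it did not pass in most fits that left out 1 tumour.

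**Figure D5:**
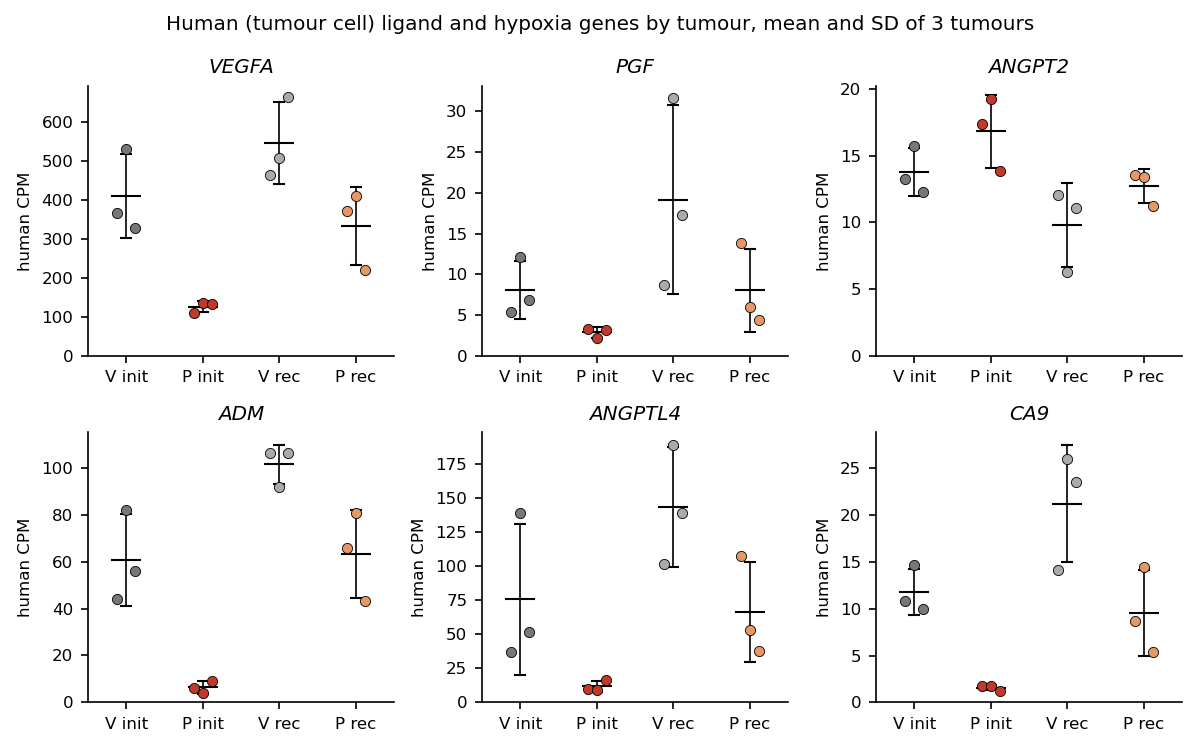
Human genes in human CPM (vertical axes, from 0) by tumour, with mean and SD of 3: the VEGF receptor ligands VEGFA and PGF, the angiopoietin ANGPT2, and ADM, ANGPTL4 and CA9. V is vehicle and P is palbociclib. The palbociclib initial tumours lie below all vehicle initial tumours for each gene except ANGPT2. Such separation was not counted over all human genes.

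The hypoxia and glycolysis genes of the tumour cells, 30 human genes of which 3 are also in the ligand list, moved in the same contrasts. At the initial stage 18 of the 30 fell, where 1.7% of all human genes did, and 12 did not pass. The median was -1.09 against 0.0014 for all human genes. CA9, a carbonic anhydrase that buffers pH, fell by 2.94 ± 0.39, NDRG1 by 3.09 ± 0.42 and the enolase ENO2 by 2.66 ± 0.32 (edgeR adjusted p = 0.0010, 0.0024 and 0.00059). After recovery all 30 had negative values with a median of -0.67, where 50.25% of all human genes were negative. None of the 30 passed in edgeR's test, against 0.00537% of human genes. From palbociclib initial to palbociclib recovery tumours 17 of the 30 rose, where 2.36% of all human genes did. This list and its direction were known from earlier results of these data and are not independent evidence. The mean log2 CPM of the 30 genes was 4.94 to 5.10 in palbociclib initial tumours, where summed endothelial CPM was 1096 to 1426. It was 5.91 to 6.36 in palbociclib recovery tumours (1300 to 1671 CPM), 6.01 to 6.63 in vehicle initial tumours (1539 to 1845 CPM) and 6.52 to 7.08 in vehicle recovery tumours (1744 to 2072 CPM). Whether the endothelial and the hypoxia values bear on each other was not tested. Of the 45 ligand and hypoxia genes tested 18 fell at the initial stage. The count was 10 without palbociclib initial tumour 1, 11 without palbociclib initial tumour 3, 11 without vehicle initial tumour 2 and 6 without vehicle initial tumours 2 and 3. In the same fits the share of all human genes that fell was 0.785%, 0.854%, 0.986% and 0.464%, against 1.7% with all tumours. Of the same 45 genes 18 were higher in palbociclib recovery than in palbociclib initial tumours. That count was 10 without palbociclib initial tumour 1, 11 without palbociclib initial tumour 3 and 11 without palbociclib recovery tumour 2. The share of all human genes that rose was 0.957%, 1.1% and 1.27% in these fits, against 2.36% with all tumours.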

How the data were processed

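RNA was extracted from homogenised tumours and sequenced from TruSeq libraries, per the labels' protocols. The values the authors deposited are raw read counts for Ensembl genes of both species, 1 file per tumour. GRCh38 and GRCm38 are the builds, and STAR, cutadapt, edgeR and CASAVA 1.8 the tools, listed in the submitters' processing notes without roles. No source used here states the counting program, its strand setting or the handling of reads that align to both genomes, so overlapping or near-identical genes are uncertain. The 4 rows that name no gene held 37.0% to 69.1% of counts and were left out, as were 713 repeated rows of 484 identifiers.

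Mouse and human genes were fitted separately in R 4.3.3 with edgeR 4.0.16 on the counts (filterByExpr with minimum count 10 and minimum total 15, trimmed mean of M-values (TMM) scaling, 1 quasi-likelihood model with 4 group means over 12 tumours, Benjamini-Hochberg adjustment over all genes of the species). This left 13055 mouse and 18628 human genes, with biological coefficients of variation of 0.238 and 0.18. Each standard error was derived from the fold change and the F statistic. A gene passed at an adjusted p under 0.05. DESeq2 1.42.0 was an alternative. The edgeR fit was run on simulated counts for the drug contrast at each stage, with planted changes larger than those of the endothelial genes. Smaller changes, the other contrasts and DESeq2 were not simulated. CPM is the count divided by the species' own total, without TMM.

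Groups follow the treatment and stage labels, and tumour numbers follow accession order and pair nothing. Pairs of tumours in a group differed by more than counting noise over the 9 genes (chi-square per degree of freedom of 3.51 to 25.5), so none was counted as a duplicate. All 9 genes are named in every comparison. Of the human lists, VEGFA, VEGFB, VEGFC, PGF, ANGPT1, ANGPT2, ADM, CA9, NDRG1 and ENO2 are named whatever their result, with ligand genes that passed. Tested ligand genes with groups apart at the initial stage and the endoglin ligands are named as well. Human names and coordinates come from GENCODE 29. Mouse symbols were those stated with the member identifiers, and the other mouse gene lists were not analysed here because no table used here pairs mouse identifiers with symbols. The members and lists were chosen with earlier results of these data known. Alternatives were other library sizes, filters, models and tumours left out.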

Additional observations from a re-analysis of the deposited data

Results flagged for a closer look

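ADM, the human adrenomedullin gene, was the 1 gene among those named whose palbociclib effect passed a test of the difference between stages. The recovery effect minus the initial effect was 2.53 ± 0.42 on the log2 scale (SE, edgeR adjusted p = 0.037), from -3.30 at the initial stage to -0.77 after recovery, where 0.22% of human genes passed. The lowest palbociclib recovery tumour had 43.2 CPM and the highest palbociclib initial tumour 9.08 CPM. With each tumour left out in turn the difference stayed between 2.25 and 2.88, and it did not pass when any 1 was left out of palbociclib initial tumour 1, palbociclib recovery tumours 1 and 2, vehicle initial tumours 2 and 3 and vehicle recovery tumours 1, 2 and 3, nor without vehicle initial tumours 2 and 3 together, where it was 2.01 (edgeR).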

How the results depend on the processing

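No paired analysis was possible because the labels give no replicate number shared between groups. For edgeR's test of the 9 mouse genes the count that passed was 0 in every contrast. It became 1 (Flt1) at the initial stage and 1 (Flt1) after recovery with DESeq2 and with no filter on low counts, and 1 at the initial stage without vehicle initial tumour 1. For the average over stages it was 1 with DESeq2, without TMM scaling and with a filter of CPM of at least 1 in 3 tumours, 4 with no filter, and 0 to 1 with each tumour left out. That filter, planned as stricter, kept 18508 mouse genes, more than the main one. The summed endothelial level gave a log2 ratio of -0.20 (initial) and 0.053 (recovery) with all assigned counts as denominator. Flt1 kept its sign for the drug effect at both stages and for the average over stages in every alternative run.

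The count of human ligand and hypoxia genes, 18 at the initial stage, was 6 without vehicle initial tumours 2 and 3 (0.464% of all human genes passed, 1.84% with all tumours) and 10 to 23 with each tumour left out. After recovery it was 1 with DESeq2 (0.107% of all human genes) and 24 with no filter (2.06%). For the difference between stages, with 1 gene, it was 3 with DESeq2 (0.558%), 2 without TMM (0.279%), 8 with no filter (0.832%), 0 without vehicle initial tumours 2 and 3 (0.0195%) and 0 to 2 with each tumour left out. In vehicle tumours over time it was 1 with DESeq2 (0.451%) and 22 with no filter (2.92%). Between palbociclib recovery and palbociclib initial tumours, with 18 genes, it was 10 to 22 with each tumour left out. Vehicle recovery tumour 2, which stood apart among human genes, is outside this contrast and the initial drug contrast. Without it the share of all human genes that passed rose from 1.84% to 3.87% for the initial drug effect. Between the palbociclib groups it rose from 2.82% to 7.37%.

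Signs that turned belonged to log2 fold changes that had not passed, and the cause was not tested. With all assigned counts as library size they were, for the initial drug effect, Tek 0.063, Vwf 0.084 and Eng 0.0012, for the recovery drug effect Pecam1 0.29, Tie1 0.039 and Eng 0.031, and for the average Pecam1 0.073, Tek 0.28 and Eng 0.016. On that scale they were also Cdh5 0.0969, Kdr 0.14, Emcn 0.023 and Eng 0.030 for the difference between stages and Pecam1 -0.00518, Kdr -0.00318 and Tek -0.012 for vehicle tumours over time. Without TMM they were Cdh5 0.031 and Kdr 0.033 for the difference and Pecam1 -0.014 and Tek -0.00406 for vehicle tumours over time. With the mouse share as covariate they were Tek 0.052 and ANGPT1 -0.094 for the initial effect, Tek 0.23 for the average, Cdh5 0.0084 and Kdr 0.072 for the difference and Vwf 0.012 for vehicle tumours over time. For vehicle tumours over time Pecam1 was also -0.00552 with DESeq2 and -0.0048 with the compared groups only, and Vwf was 0.0108 with the CPM filter and 0.0105 with no filter. Without vehicle initial tumours 2 and 3, which leaves 1 vehicle initial tumour assumed to vary like the others, Eng was 0.014 for the initial effect. There the difference was Cdh5 0.19, Kdr 0.040 and Flt1 -0.12, and vehicle tumours over time gave Pecam1 -0.29, Cdh5 -0.070, Kdr -0.019, Tek -0.45 and Tie1 -0.25.

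With each tumour left out in turn the values that turned ran, for the initial effect, from -0.32 to 0.16 (Tek), -0.49 to 0.13 (Vwf) and -0.066 to 0.29 (ANGPT1). For the recovery effect they ran from -0.18 to 0.041 (Pecam1), -0.0054 to 0.17 (Tek) and -0.50 to 0.039 (ANGPT1), and for the average from -0.10 to 0.14 (Tek). For the difference they ran from -0.22 to 0.21 (Cdh5), -0.21 to 0.10 (Kdr), -0.098 to 0.26 (Flt1), -0.048 to 0.43 (Tek), -0.023 to 0.39 (Tie1), -0.34 to 0.068 (Emcn) and -0.21 to 0.077 (Eng). Over time they ran in vehicle tumours from -0.14 to 0.19 (Pecam1), -0.098 to 0.33 (Cdh5), -0.067 to 0.16 (Kdr), -0.13 to 0.35 (Tek), -0.12 to 0.29 (Tie1) and -0.26 to 0.39 (Vwf). Between palbociclib recovery and palbociclib initial tumours they ran from -0.049 to 0.23 (Cdh5) and -0.18 to 0.13 (Kdr). With 55 to 1148 counts per gene and tumour, the spread between 3 tumours sets the intervals.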
